A study of Mus musculus with 8 samples.

Results

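The enzymes that make and break down the sphingolipids, galactolipids and fatty acids of myelin were followed in adult oligodendrocyte progenitor cells (aOPC) and adult oligodendrocytes (aOL) of the mouse brain. The set held 41 genes listed by symbol, by a rule that uses no measured value, 35 for synthesis and 6 for sphingolipid breakdown. Of these, 40 were among the 11315 genes of the RNA tables (Cers6 was not), and all 40 passed the filter on low values. In the hydroxymethylation tables all 41 had sites in the gene body and 38 had sites in the promoter, and together they carried 1774 of the 1497075 CpG sites listed.

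Myelin is rich in sphingolipids with very long acyl chains, above all galactosylceramide and its sulfated form, sulfatide. Their synthesis starts from serine and palmitoyl-CoA with a sphingoid base, goes on to ceramide, which carries a second fatty acid, and ends with the transfer of a sugar head group. The fatty acids are built from acetyl-CoA, and as CoA esters, their activated form, they are elongated and desaturated. Hydrolases, most of them lysosomal, take the finished lipids apart.

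The aOPC were sorted by EGFP from Pdgfra-H2BEGFP mice, whose Pdgfra locus drives a nuclear reporter, and the aOL from Plp-EGFP mice, a line named for the promoter of its transgene. All mice were C57BL/6 at postnatal day 60 and untreated, and DNA and RNA came from one pellet of sorted brain cells. Each population had 2 RNA-sequencing libraries and 2 libraries of reduced representation hydroxymethylation profiling (RRHP), numbered 2 and 3 in the titles, and a library numbered 1 was not analysed here. For RRHP of aOL the tissue label names the Pdgfra reporter, so grouping followed the titles, and the RNA titles call the aOL pre-myelinating where the protocol calls them myelinating.

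The RNA values are log2 levels with a median of 10.57 in every library and carry no read counts. The RRHP libraries held 7113237 to 27057859 counts, and the smallest, aOPC replicate 2, had 5.74% of its counts in CpG islands against 2.38% to 3.32% in the other libraries. Pdgfra, the receptor that defines OPCs, had log2 levels of 7.54 and 5.47 (aOPC) against 4.98 and 1.63 (aOL), and of 10 measured OPC markers 7 had a lower mean in aOL, 3 of them at an unadjusted limma p under 0.05 and none with an adjusted p under 0.05. The library labelled aOPC replicate 3 stood apart, with a median level of these 10 markers of 6.61 against 8.75 in aOPC replicate 2 and 6.80 and 6.87 in the aOL libraries. It alone of the aOPC libraries lay below both aOL libraries for Gpr17, Ptprz1 and Lhfpl3, so counts of calls are also given without it. For Matn4 both aOPC libraries (8.63 and 8.14) lay below both aOL libraries (8.84 and 9.54). Transcripts of mature oligodendrocytes were abundant in both sorted populations. The summed linear level of 11 oligodendrocyte markers was 2189550 to 2994860 in aOPC and 2667490 to 2831930 in aOL. Of these, 5 had a higher and 6 a lower mean in aOL, 4 of the latter at an unadjusted limma p under 0.05. The 4 were Opalin (log2 difference -0.98 ± 0.23), Cldn11 (-0.76 ± 0.24), Mog (-0.65 ± 0.22) and Aspa. Opalin was at 16.13 and 15.88 (aOPC) against 14.88 and 15.17 (aOL). Cnp, a myelin enzyme among the 5, was at 19.40 and 19.28 (aOPC) against 19.58 and 19.58 (aOL). The summed levels of 9 astrocyte markers (11015 to 14033 in aOPC and 11154 to 12867 in aOL) and 7 neuronal markers (6325 to 6378 in aOPC and 5960 to 5986 in aOL) were far lower. So were those of 10 microglial markers (3936 to 6152 in aOPC and 3319 to 4435 in aOL) and of the 3 endothelial and mural markers in the tables (568 to 796 in aOPC and 975 to 2072 in aOL), of which Cldn5 was at 0.33 and 1.80 (aOPC) against 5.92 and 7.13 (aOL). The part of these transcripts in the RNA results was not tested, and in sorted bulk cells fewer cells of a type and less RNA per cell cannot be told apart.

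RRHP marks 5-hydroxymethylcytosine (5hmC), an oxidised form of the methylated base. It reads cytosines only within the letters CCGG, the target of the enzyme MspI, and all 1774 listed sites of the set lay at a CCGG of the GRCm38 genome. RefSeq promoter windows of 300 bases (250 before and 50 after the start, build GRCm38.p6) were found for 35 of the 41 genes, in 42 windows. CCGG, which reads the same on both strands, was in 32 of them (76.2%) and in 52.8% of all 32851 windows. Those of Ugt8a (chr3:125938603-125938902, minus strand), Fasn (chr11:120824498-120824797, minus strand), Cers2 (chr3:95314940-95315239, plus strand), Elovl7 (chr13:108214154-108214453, plus strand) and Aspa (chr11:73324588-73324887, minus strand) are printed along the gene, 5′ to 3′ with each CCGG in capitals, because they run from promoters with several readable sites to one with none.
Ugt8a promoter: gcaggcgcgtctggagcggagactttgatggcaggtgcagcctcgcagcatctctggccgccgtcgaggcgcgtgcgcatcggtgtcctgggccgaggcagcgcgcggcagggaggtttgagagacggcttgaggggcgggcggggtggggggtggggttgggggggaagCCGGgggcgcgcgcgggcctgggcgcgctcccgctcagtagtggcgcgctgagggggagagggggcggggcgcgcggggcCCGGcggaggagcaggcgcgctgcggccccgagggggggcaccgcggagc
Fasn promoter: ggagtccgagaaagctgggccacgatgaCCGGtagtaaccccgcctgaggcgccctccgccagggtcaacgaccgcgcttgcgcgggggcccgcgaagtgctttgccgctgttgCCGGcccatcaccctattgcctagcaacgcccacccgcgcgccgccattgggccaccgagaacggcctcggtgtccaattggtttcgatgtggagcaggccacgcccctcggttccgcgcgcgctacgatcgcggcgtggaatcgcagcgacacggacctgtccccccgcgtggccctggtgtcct
Cers2 promoter: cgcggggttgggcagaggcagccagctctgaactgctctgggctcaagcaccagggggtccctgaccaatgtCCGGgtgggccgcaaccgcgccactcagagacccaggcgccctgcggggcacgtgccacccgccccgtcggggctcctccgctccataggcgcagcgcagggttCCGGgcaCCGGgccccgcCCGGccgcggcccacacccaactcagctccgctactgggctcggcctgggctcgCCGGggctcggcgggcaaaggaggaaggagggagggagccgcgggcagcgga
Elovl7 promoter: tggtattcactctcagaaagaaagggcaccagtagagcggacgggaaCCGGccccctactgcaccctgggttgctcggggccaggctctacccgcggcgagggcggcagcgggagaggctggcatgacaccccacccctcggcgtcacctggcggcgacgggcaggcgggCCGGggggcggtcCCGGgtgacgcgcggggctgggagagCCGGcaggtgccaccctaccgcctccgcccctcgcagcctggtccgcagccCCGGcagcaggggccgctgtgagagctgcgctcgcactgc
Aspa promoter: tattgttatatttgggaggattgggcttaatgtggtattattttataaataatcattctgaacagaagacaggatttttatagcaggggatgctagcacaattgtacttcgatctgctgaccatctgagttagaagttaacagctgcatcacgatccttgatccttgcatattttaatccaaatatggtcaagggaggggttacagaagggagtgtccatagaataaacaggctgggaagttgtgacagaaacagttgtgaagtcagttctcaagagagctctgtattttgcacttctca
Cers2 has a second window, not printed (chr3:95318580-95318879), with 1 CCGG and no listed site. The Aspa window holds no CCGG and could give no RRHP read, and the printed windows of Cers2 and Elovl7 hold 5 each. RRHP counts over the whole window were 8 and 6 (aOPC) against 11 and 24 (aOL) for Elovl7, 13 and 5 (aOPC) against 6 and 26 (aOL) for Fasn, 8 and 8 (aOPC) against 4 and 10 (aOL) for Cers2 and 2 and 1 (aOPC) against 7 and 2 (aOL) for Ugt8a. The readable promoter sites thus held few reads in either population.

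No lipid gene was called different in RNA between aOL and aOPC. With a call at p under 0.01 and a Benjamini-Hochberg adjusted p under 0.05 (limma, over all 11133 genes tested), 0 of 40 were called, beside 0.0808% of all genes, and the smallest adjusted p of the set was 0.133. At an unadjusted p under 0.05, 7 of the 40 were higher in aOL (12.1% of all genes), namely Ugt8a, B4galnt1, Acaca, Fasn, Scd2, Fads1 and Acsl4. Aspa alone was lower (12% of all genes). The aOL libraries lay wholly above the aOPC libraries for 17 of the 40 (31.9% of all genes) and wholly below for 8 (29.9%). The median difference, aOL minus aOPC on the log2 scale, was 0.17 over the 40 genes and 0.02 over all genes.

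**Figure D1:**
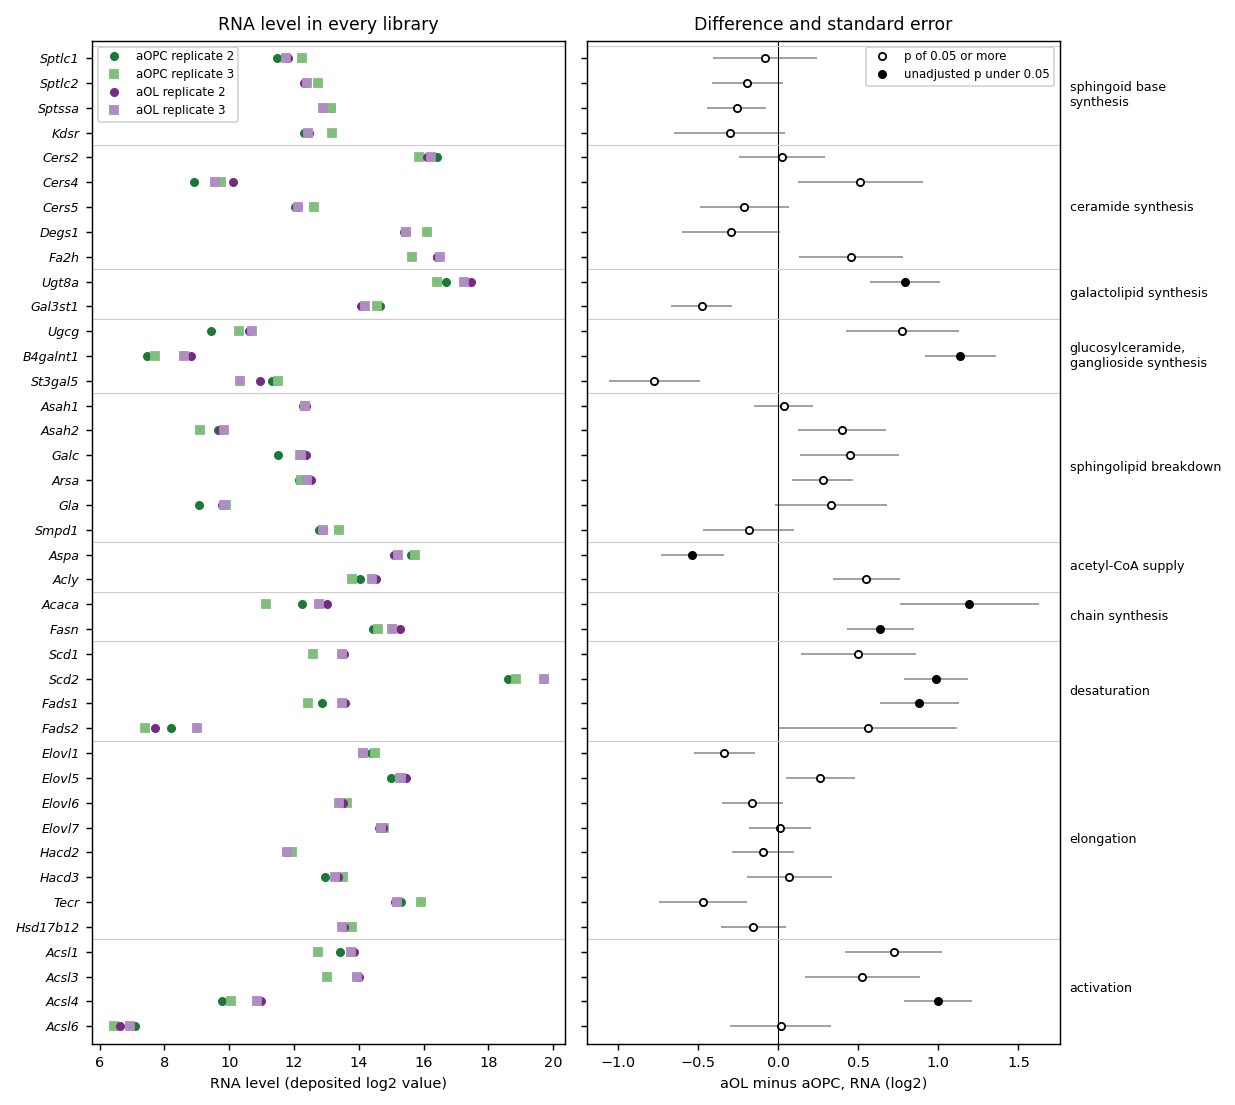
RNA of the 40 lipid genes grouped by role, with the deposited log2 level in each of the 4 libraries on the left and the aOL minus aOPC difference (log2) with its standard error from limma on the right. Filled points had an unadjusted p under 0.05, and the differences run from -0.77 (St3gal5) to 1.19 (Acaca).

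Genes that build the fatty acid chain had higher levels in aOL, short of a call. Fasn, the fatty acid synthase that makes palmitate, had log2 RNA levels of 14.44 and 14.60 (aOPC) against 15.28 and 15.03 (aOL). The aOL libraries were both above the aOPC libraries, by 0.64 ± 0.21 (log2 difference with its SE, n = 2 libraries a population, limma adjusted p = 0.19). Acaca, the acetyl-CoA carboxylase that supplies malonyl-CoA, had 12.25 and 11.15 (aOPC) against 13.01 and 12.78 (aOL), a difference of 1.19 ± 0.43 (limma adjusted p = 0.205). Its aOPC libraries lay 1.0995 apart, the widest aOPC gap of the 40 genes. The difference was 0.64 without aOPC replicate 3 and 1.74 without aOPC replicate 2.

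The genes for acetyl-CoA supply went opposite ways. Acly, the ATP citrate lyase that makes cytosolic acetyl-CoA, was at 14.05 and 13.78 (aOPC) against 14.53 and 14.40 (aOL) (difference 0.55 ± 0.21). Aspa, the aspartoacylase that frees acetate from N-acetylaspartate, was at 15.62 and 15.74 (aOPC) against 15.08 and 15.21 (aOL). Both aOL libraries of Aspa were below both aOPC libraries (difference -0.53 ± 0.19, limma adjusted p = 0.207), and Aspa is itself among the 11 oligodendrocyte markers above.

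The 4 desaturases had higher means in aOL. Scd2, a stearoyl-CoA desaturase and the most abundant RNA of the set, stood at 18.60 and 18.84 (aOPC) against 19.71 and 19.71 (aOL). That is a ratio of 1.98 (log2 difference 0.99 ± 0.20, limma adjusted p = 0.134). The aOL values were identical (SD 0), on a scale whose high values recur between genes and libraries. This tie can reflect an equal rank and is no measure of replicate spread. The ratio depends on how such values are spaced. Fads1, the delta-5 desaturase of polyunsaturated fatty acids, stood at 12.87 and 12.42 (aOPC) against 13.59 and 13.47 (aOL) (difference 0.88 ± 0.25, limma adjusted p = 0.164). Both were without overlap. Scd1, the paralogue of Scd2, had 13.46 and 12.57 (aOPC) against 13.55 and 13.48 (aOL) and an aOPC gap of 0.89, wider than its difference of 0.50 ± 0.36. Fads2, the delta-6 desaturase, had 8.21 and 7.39 (aOPC) against 7.71 and 9.001 (aOL), with overlap.

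Acyl-CoA synthetases activate long chain fatty acids. Acsl4, which prefers arachidonate, had 9.78 and 10.05 (aOPC) against 10.98 and 10.84 (aOL) without overlap (difference 1.001 ± 0.21, limma adjusted p = 0.134). Acsl1 was likewise without overlap (difference 0.72 ± 0.30, and 0.38 to 1.06 without one library). So was Acsl3 at 13.90 and 13.01 (aOPC) against 14.01 and 13.96 (aOL) (difference 0.53 ± 0.36). Acsl6, the least abundant member per kb, overlapped (difference 0.02 ± 0.32). Of the 12 genes for supply, chain synthesis, desaturation and activation, 11 had a higher mean in aOL, 9 of them without overlap. Over all genes, 5712 of 11133 had a higher mean and 31.9% were wholly higher. Without one library, 9 to 11 of the 12 were higher. The 12 leave out the 8 elongation genes given next, of which 3 had a higher mean. Of 17 other genes for fatty acid synthesis and its regulation, 7 had a higher and 10 a lower mean (median -0.05). The median difference of the 12 was 0.60. It was 0.40 without aOPC replicate 3 and 0.91 without aOPC replicate 2, and without replicate 3 Scd1 (0.06) and Acsl3 (0.08) were near 0.

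The elongation genes had differences of both signs. Of 8, 3 had a higher and 5 a lower mean in aOL, with a median of -0.12 and none at an unadjusted p under 0.05. The aOL libraries lay wholly above the aOPC libraries for 1 of the 8 and wholly below for 4, beside 31.9% and 29.9% of all genes. Elovl1, an elongase of saturated very long chains, had 14.37 and 14.50 (aOPC) against 14.09 and 14.12 (aOL) and no overlap (difference -0.34 ± 0.19). Elovl7, another elongase of long chains, had 14.62 and 14.78 (aOPC) against 14.73 and 14.69 (aOL), with the aOL libraries inside the aOPC range (difference 0.01 ± 0.19). Tecr, the reductase of the last step of the cycle, differed by -0.47 ± 0.28, and Elovl5, Elovl6, Hacd2, Hacd3 and Hsd17b12 by -0.16 to 0.26.

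None of the genes for the first steps of sphingolipid synthesis passed the test in RNA. The 4 genes of sphingoid base synthesis had a lower mean in aOL, as had 5420 of all 11133 genes tested, and none had an unadjusted p under 0.05. Differences ran from -0.30 for Kdsr, the ketosphinganine reductase, to -0.08 for Sptlc1, a subunit of serine palmitoyltransferase. Sptssa was wholly lower in aOL, as were 29.9% of all genes, and 3 of the 4 overlapped between populations. Kdsr (from -0.72 to 0.12) and Sptlc1 (from -0.46 to 0.31) changed sign without one library. Cers2, the ceramide synthase for very long acyl chains, had 16.41 and 15.86 (aOPC) against 16.10 and 16.23 (aOL). The aOPC libraries enclosed the aOL libraries (difference 0.02 ± 0.27). Fa2h, which adds the 2-hydroxyl group of myelin galactolipids, had 16.40 and 15.63 (aOPC) against 16.43 and 16.51 (aOL), without overlap but with a difference of 0.45 ± 0.33, which was 0.07 without aOPC replicate 3 and 0.84 without aOPC replicate 2. Cers4, Cers5 and Degs1 overlapped.

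The galactolipid enzymes differed in sign. Ugt8a, the transferase that turns ceramide into galactosylceramide, was at 16.71 and 16.43 (aOPC) against 17.46 and 17.26 (aOL), a difference of 0.79 ± 0.22 (limma adjusted p = 0.164). Gal3st1, the sulfotransferase that makes sulfatide from that product, was at 14.65 and 14.55 (aOPC) against 14.07 and 14.18 (aOL), a difference of -0.48 ± 0.19 (limma adjusted p = 0.229). Neither gene overlapped between populations and neither was called.

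B4galnt1, an N-acetylgalactosaminyltransferase of complex ganglioside synthesis, had the lowest p of the set. Its log2 RNA levels were 7.45 and 7.72 (aOPC) against 8.83 and 8.61 (aOL), a difference of 1.14 ± 0.22 (limma adjusted p = 0.133). Of the other genes for glucosylceramide and gangliosides, Ugcg, the glucosylceramide synthase, differed by 0.78 ± 0.35, and St3gal5, the GM3 synthase, by -0.77 ± 0.29. Both were without overlap, in opposite directions. Without one library Ugcg ran from 0.34 to 1.21 and St3gal5 from -1.07 to -0.47.

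For sphingolipid breakdown, 5 of 6 genes had a higher mean in aOL, 3 of them without overlap (wholly higher: 31.9% of all genes) and 0 at an unadjusted p under 0.05. Galc, the galactosylceramidase deficient in Krabbe disease, had 11.50 and 12.19 (aOPC) against 12.38 and 12.20 (aOL) (difference 0.45 ± 0.31). Arsa, the arylsulfatase that desulfates sulfatide, had 12.17 and 12.22 (aOPC) against 12.53 and 12.42 (aOL) (difference 0.28 ± 0.19). Asah2, the neutral ceramidase, had 9.67 and 9.09 (aOPC) against 9.72 and 9.84 (aOL) (difference 0.40 ± 0.27). Gla, the alpha-galactosidase, Asah1, the acid ceramidase, and Smpd1, the acid sphingomyelinase, overlapped. Without one library the difference of Gla ran from -0.09 to 0.76 and that of Smpd1 from -0.50 to 0.13, so both changed sign. That of Galc ran from 0.10 to 0.79 and that of Asah2 from 0.11 to 0.69, without a change of sign. The median difference was 0.30 for breakdown and 0.05 for the 34 measured synthesis genes. That order turned without aOPC replicate 2, at 0.055 for breakdown and 0.114 for synthesis.

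Between genes, levels were compared per kb of exon (log2 level minus log2 of exon kb). In aOL the order began with Scd2 (17.26), Ugt8a (15.30), Fa2h (15.15), Cers2 (15.01) and Tecr (14.73) and ended with Cers4 (6.60), Asah2 (6.53) and Acsl6 (3.85). On the same scale aOPC had 16.27 for Scd2, 14.51 for Ugt8a, 14.70 for Fa2h and 14.99 for Cers2. The genes at the top of the order in aOL were thus abundant in the cells sorted as aOPC too, as were the oligodendrocyte markers reported above.

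Of 88 other genes of these pathways in 4 lists, 66 were tested. None was called, and 6 were higher and 3 lower in aOL at an unadjusted limma p under 0.05, shares below the 12.1% and 12% of all genes, and the median difference was -0.02. Of the 12 for sphingolipid synthesis and its regulation 4 were higher and 0 lower: the sphingomyelin synthases Sgms1 (0.57 ± 0.20) and Sgms2 (1.282 ± 0.20), the related Samd8 (1.27 ± 0.21) and the ceramide kinase Cerk (0.63 ± 0.19). In sphingolipid breakdown 1 of 19 was higher, the phosphatase Sgpp1 (0.71 ± 0.20). In fatty acid synthesis 2 of 17 were lower, the dehydratase Hacd1 (-1.280 ± 0.28) and Oxsm, of the mitochondrial pathway (-2.56 ± 0.41). In fatty acid breakdown Cpt1a, for mitochondrial import, was higher (0.63 ± 0.22) and the peroxisomal thiolase Acaa1a lower (-1.32 ± 0.26), of 18.

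The RNA counts turned on single libraries. The aOPC pair lay more than 0.5 apart in 20 of the 40 genes and the aOL pair in 3. The widest aOPC gaps were those of Acaca, Acsl3 (0.89) and Scd1, with replicate 3 the lower in all 3. Without aOPC replicate 2, limma called 13 of 40 (10 higher, 3 lower) and 34.2% of all genes, with the lone aOPC library assumed to vary like the aOL pair. Without aOPC replicate 3 it called 5, all higher, and 17.7% of all genes. Both fits rest on a lone aOPC library and share the aOL libraries. Without either aOL library 0 were called. At an unadjusted p under 0.05 the 7 higher and 1 lower genes became 14 and 10 without aOPC replicate 2 (all genes: 29.3% and 30.5%), 13 and 2 without aOPC replicate 3 (all genes: 25.8% and 22.2%), and 0 and 0 without either aOL library. The sign of the difference changed without some single library for 11 of the 40 genes.

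Hydroxymethylation of the lipid genes lay in exons and introns rather than promoters. Per listed site, exon sites outside promoters had a mean of 1.16 and 1.31 (aOPC) against 1.32 and 1.16 (aOL) CPM (counts scaled to the library total). Intron sites had 0.918 and 1.07 (aOPC) against 1.13 and 1.01 (aOL) CPM, the 618 promoter sites 0.345 and 0.139 (aOPC) against 0.127 and 0.162 (aOL) and the 451 CpG island sites 0.287 and 0.101 (aOPC) against 0.0918 and 0.127 (aOL). Exon and intron sites were above promoter sites in every library. Over all genes the order was the same, with 0.233 to 0.409 CPM at promoter sites and 0.937 to 1.009 at exon sites. The highest promoter value was that of aOPC replicate 2, the library with the largest share of counts in CpG islands.

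**Figure D2:**
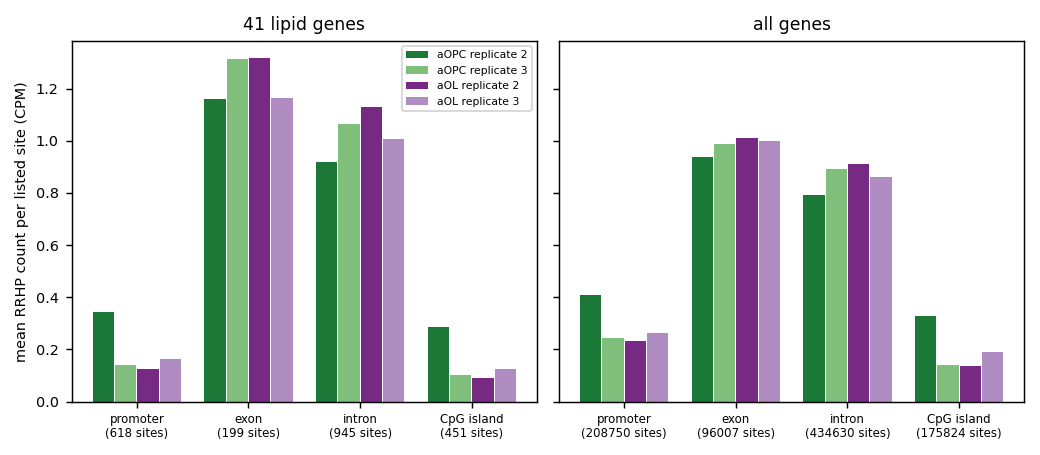
Mean RRHP count per listed CpG site (CPM, bars from 0) by the authors' annotation of each site, for the 41 lipid genes on the left and all genes on the right, in each of the 4 libraries. Exon and intron bars stand above promoter and CpG island bars in every library, and aOPC replicate 2 has the tallest promoter bar, 0.345 CPM for the lipid genes.

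Gene bodies varied far more among members than between populations. Per kb of gene, the mean over the 4 libraries was highest for B4galnt1 (5.33 CPM), Fasn (4.28) and Arsa (2.59) and lowest for Aspa (0.06), Hacd2 (0.107) and Sptssa (0.143). This order depends on how densely the listed sites lie, with 60 in 7185 bases for B4galnt1 and 11 in 12837 for Gla. Per listed site the order differed, with Gla (2.396 CPM) and Fasn (1.370) above Arsa (0.713) and B4galnt1 (0.638). On that scale Aspa (0.438) was above Sptssa (0.123). The median of the set was 0.518 CPM per kb, beside 0.517 over all genes with a length. Ugt8a (0.156) and Cers2 (0.157), abundant in RNA, were at the 20.3 and 20.4 percentile of all genes per kb, and Fasn at the 97.3 percentile. Summed over the gene body, Elovl6, the elongase from palmitate, had the most signal, 134 and 198 (aOPC) against 221 and 181 (aOL) CPM. Fasn had 83.8 and 86.0 (aOPC) against 84.9 and 74.2 (aOL) CPM (log2 difference -0.11 ± 0.13, edgeR) and Ugt8a 13.9 and 8.82 (aOPC) against 11.0 and 12.1 (aOL) (0.06 ± 0.23), and all 3 overlapped between populations.

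Of the 41 gene bodies tested with edgeR's quasi-likelihood test (adjusted p under 0.05), 0 were called higher in aOL (0.162% of all gene bodies) and 1, Asah1, was called lower (0.687%). At an unadjusted p under 0.05, 0 were higher (2.82% of all) and 2 lower (4.48% of all), and 32 of the 41 differences lay within 0.3 of 0 on the log2 scale. Besides Asah1 the lower one was B4galnt1, at 52.2 and 35.5 (aOPC) against 32.0 and 33.4 (aOL) CPM (difference -0.41 ± 0.17, edgeR adjusted p = 0.632), whose high value was that of aOPC replicate 2. Sptssa (-1.03 ± 0.63), Degs1 (-0.82 ± 0.46), Cers2 (-0.75 ± 0.76) and Scd2 (-0.63 ± 0.46) had low counts, and their highest CPM was also in aOPC replicate 2. With that library alone standing for aOPC (without aOPC replicate 3), 11 gene bodies of the set were called (5 higher, 6 lower), as were 22.6% of all. Without any of the other 3 libraries Asah1 alone was called.

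**Figure D3:**
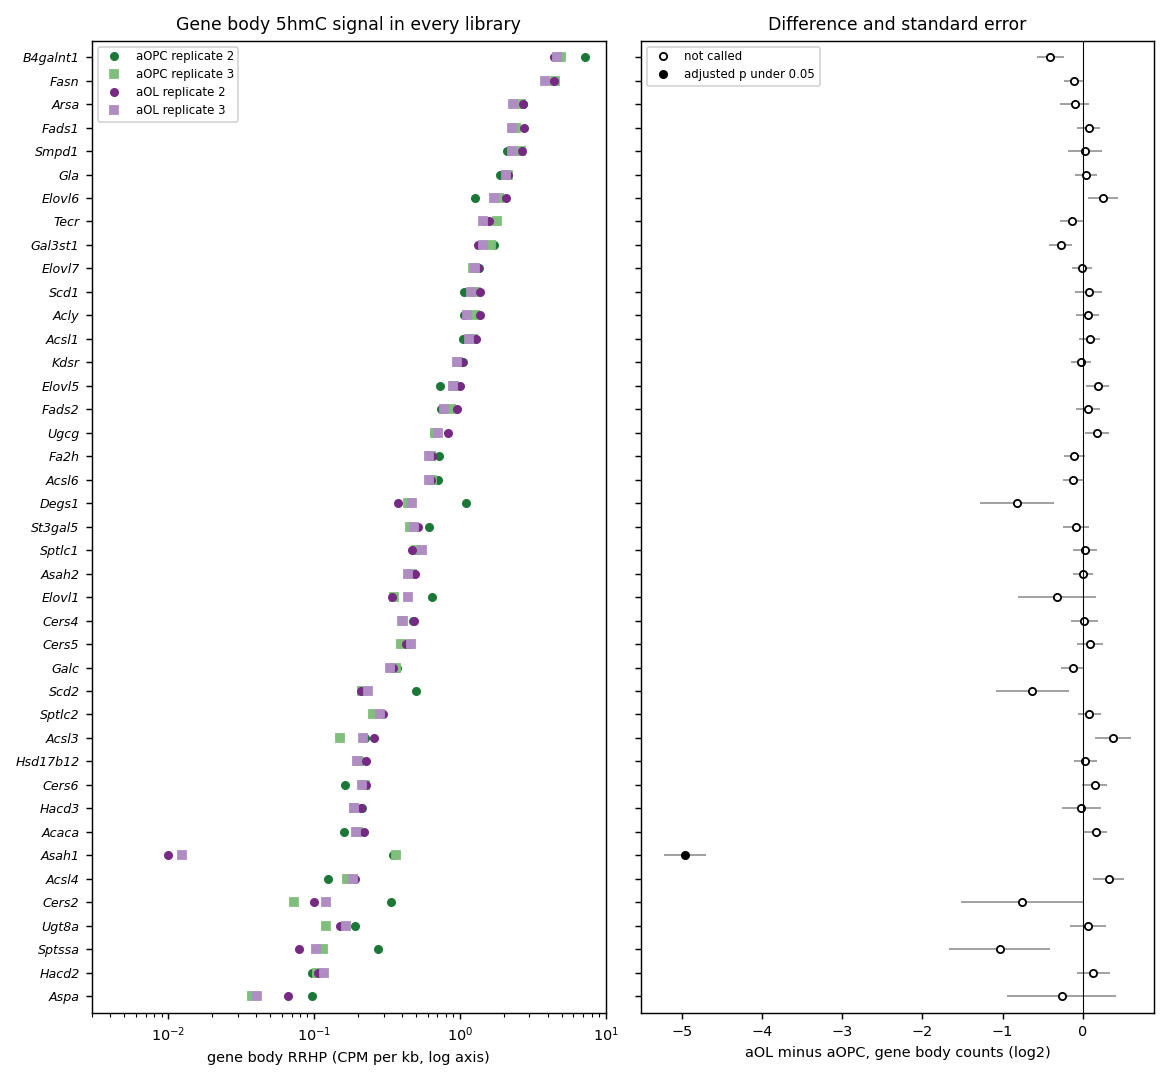
Gene body RRHP signal of the 41 genes in order of their mean, as CPM per kb on a log axis in each library (left) and as the aOL minus aOPC log2 difference with its standard error from edgeR (right). Asah1 is the filled point at -4.96, and 36 of the 41 points lie within 0.5 of 0.

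Asah1 encodes the acid ceramidase, the lysosomal enzyme that splits ceramide into sphingosine and a fatty acid. Its gene body had 140 and 355 (aOPC) against 9 and 19 (aOL) counts, or 19.7 and 20.7 (aOPC) against 0.565 and 0.702 (aOL) CPM. The aOPC libraries lay close together and far above both aOL libraries, with a difference of -4.96 ± 0.26 (log2, edgeR adjusted p = 2.78e-05). Its 4 called sites held 125 and 335 of these aOPC counts, and the other 13 sites had 15 and 20 (aOPC) against 9 and 18 (aOL), or 2.11 and 1.17 (aOPC) against 0.565 and 0.665 (aOL) CPM, also without overlap. Asah1 RNA was 12.29 and 12.35 (aOPC) against 12.37 and 12.34 (aOL), with overlap (difference 0.04 ± 0.19). Summed only over sites with at least 3 reads in each of the libraries, Asah1 could not be tested and 0 gene bodies of the set were called.

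At single CpG sites, 498 sites of the set had at least 10 reads in 2 or more libraries, and 14 in 6 genes were called (edgeR, adjusted p under 0.05). Of these, 6 were higher in aOL (1.21% of all sites tested) and 8 lower (1.08%). The lower sites were in Asah1 (4) and Tecr (4), and the higher ones in Kdsr (2), Acsl3 (2), B4galnt1 (1) and Sptlc1 (1). In 13 of the 14 both libraries of the lower population had at most 3 counts, and in 9 they had none. The remaining one, at 83575033 in Tecr, had 3 and 9 counts in aOL, also under the 10 of the filter. All 14 sites thus passed the filter on reads only through the population where they were high. Their number, direction and ratios are a description and not support for a difference.

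The Asah1 sites lay in an intron at chr8:41356476 and 41356573 (plus strand) and 41356574 and 41356655 (minus strand), 18127 to 18306 bases from the middle of the gene's promoter sites. The stretch that carries them, chr8:41356450-41356681 (GRCm38, plus strand), has 3 CCGG, in capitals.
Asah1 intron: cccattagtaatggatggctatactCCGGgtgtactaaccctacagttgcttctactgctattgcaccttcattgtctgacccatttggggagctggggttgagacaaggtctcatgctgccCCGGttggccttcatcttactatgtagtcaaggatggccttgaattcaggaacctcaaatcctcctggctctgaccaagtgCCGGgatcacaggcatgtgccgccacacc
The site at 41356573 had 58 and 150 (aOPC) against 0 and 1 (aOL) counts. With a single count in aOL, its ratio of summed counts per total was 369 with an exact 95% interval of 65.5 to 14640, which is not on the same footing as the bounds given for sites with none. The site on the opposite strand, 41356574, had 16 and 44 (aOPC) against 0 and 0 (aOL), at least 16.1-fold lower in aOL when a floor of 3 counts per library was used, that at 41356476 had 37 and 70 (aOPC) against 0 and 0 (aOL) (at least 31.0-fold lower), and that at 41356655 had 14 and 71 (aOPC) against 0 and 0 (aOL) (at least 20.4-fold lower). Both aOPC libraries carried the signal at all 4 sites.

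Tecr, the trans-2-enoyl-CoA reductase of elongation, had its 4 called sites in introns, 1963 to 19581 bases from the middle of its promoter sites. They are printed with 25 bases on each side of the CCGG in capitals (GRCm38, plus strand of chromosome 8) and named by the coordinate of the site, to be set beside the Asah1 stretch.
Tecr 83592651: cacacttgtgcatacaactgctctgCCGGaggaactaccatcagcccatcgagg
Tecr 83592486: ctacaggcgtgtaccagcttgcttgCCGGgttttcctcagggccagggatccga
Tecr 83579841: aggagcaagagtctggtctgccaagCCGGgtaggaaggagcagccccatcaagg
Tecr 83575033: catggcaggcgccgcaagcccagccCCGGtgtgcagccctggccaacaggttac
The windows are chr8:83592624-83592677, chr8:83592460-83592513, chr8:83579815-83579868 and chr8:83575006-83575059. In aOPC the site at 83592651 (minus strand) had 17 and 22 counts, that at 83592486 (plus) 12 and 29 and that at 83579841 (plus) 11 and 25, and none had a count in aOL. They were at least 12.3-fold, 11.3-fold and 10.05-fold lower in aOL against the same floor. The site at 83575033 (minus) had 16 and 51 (aOPC) against 3 and 9 (aOL) counts, a ratio of 9.90 (exact 95% interval 5.31 to 20.1). The other 33 body sites of Tecr summed to 25.7 and 33.5 (aOPC) against 35.7 and 32.6 (aOL) CPM, and the whole gene body was not called (difference -0.14 ± 0.14, edgeR adjusted p = 0.817).

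**Figure D4:**
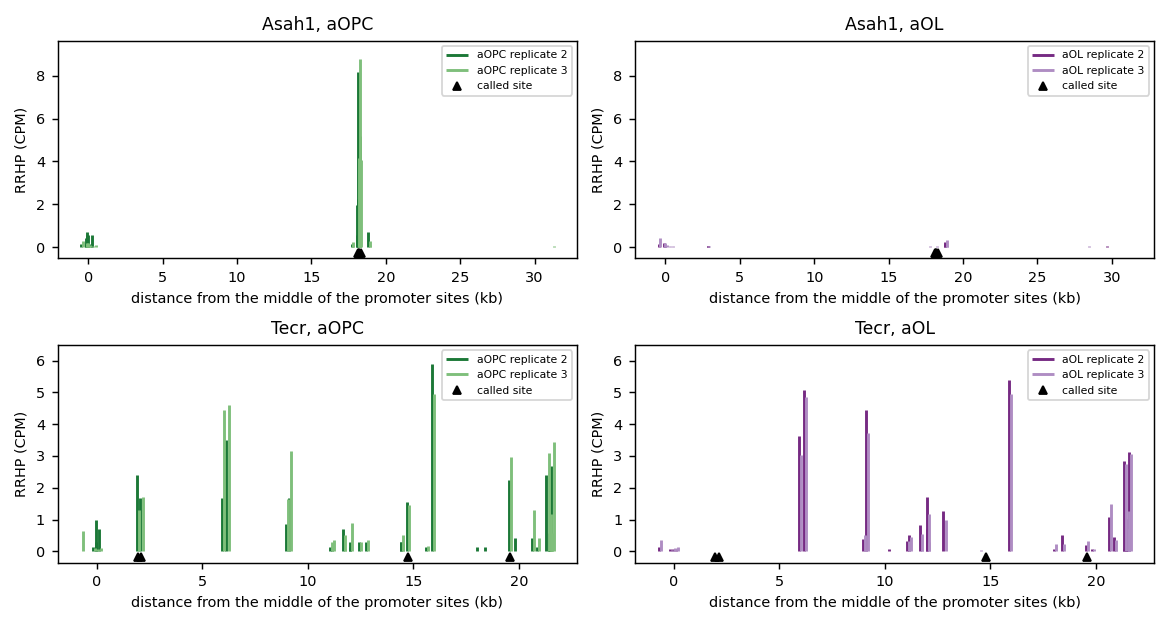
RRHP signal (CPM) at every listed CpG site of Asah1 (top) and Tecr (bottom) by distance in kb from the middle of the gene's promoter sites, in the aOPC libraries (left) and the aOL libraries (right), with triangles at called sites. The Asah1 cluster reaches 8.76 CPM in aOPC and at most 0.037 CPM in aOL at its called sites. Of the Tecr sites that were not called, some carry signal in both populations and some in 1 alone. One of the latter, at 14488 bases, had 2 and 9 (aOPC) against 0 and 0 (aOL) counts.

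The 6 sites called higher in aOL had at most 2 counts in each aOPC library. An exon site of B4galnt1 at chr10:127169747 (minus strand), printed with its surroundings chr10:127169720-127169773 (GRCm38, plus strand, CCGG in capitals), had 0 and 0 (aOPC) against 36 and 47 (aOL) counts, at least 6.70-fold higher in aOL.
B4galnt1 127169747: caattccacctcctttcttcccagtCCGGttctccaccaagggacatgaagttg
Another exon site of the gene, chr10:127167781 (minus strand), leaned the other way at 16.4 and 10.6 (aOPC) against 8.60 and 8.24 (aOL) CPM (log2 difference -0.79, edgeR adjusted p = 0.324), as did the whole gene body above. In Kdsr an intron site at chr1:106748533 (minus strand) had 0 and 0 (aOPC) against 16 and 36 (aOL) counts, at least 3.91-fold higher in aOL. Acsl3 had 2 intron sites, chr1:78697838 (plus strand) with 0 and 2 (aOPC) against 24 and 26 (aOL) counts and a ratio of 14.1, not a bound (exact 95% interval 3.70 to 119.6), and chr1:78698229 (minus strand) with 0 and 2 (aOPC) against 20 and 29 (aOL) and a ratio of 13.8 (3.63 to 117). The last 2 called sites, in introns of Sptlc1 (chr13:53368258) and Kdsr (chr1:106734873) on the plus strand, had 15 to 22 counts in each aOL library and at most 2 in each aOPC library.

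Sites read in a single population were unevenly spread over the genome. In the 5 Mb bin around the Asah1 sites, 6.16% of tested sites (34 of 552) were called with at most 3 counts in each library of one population, and around Tecr 11.5% (127 of 1101), against a median of 0.558% over 546 bins and 1.75% of all tested sites. For the other called sites the bin share ran from 0.314% (Sptlc1) to 3.396% (B4galnt1). The part of these surroundings in the site results was not tested. When at least 10 reads were asked of each library, which leaves out such sites, 219 sites of the set were tested and 0 called, beside 0.286% of all. Without aOPC replicate 3, 5 sites of the set were called, all lower and 3 of them among the 14, beside 0.118% of all sites called higher and 0.569% lower.

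The 4 sites with the most signal were read in every library of both populations. An intron site of Asah2 (chr19:32073806) had 18.1 and 19.1 (aOPC) against 18.5 and 14.3 (aOL) CPM, one of Elovl6 (chr3:129537079) 13.5 and 18.4 (aOPC) against 18.0 and 14.2 (aOL) and one of Kdsr (chr1:106746664) 16.6 and 15.0 (aOPC) against 14.8 and 12.8 (aOL). An exon site of Acly (chr11:100478329) had 11.7 and 18.2 (aOPC) against 16.3 and 12.2 (aOL). All 4, on the minus strand, had an unadjusted edgeR p over 0.05.

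No promoter was called. Of the 36 tested with edgeR, 0 were higher (0.418% of all promoters) and 0 lower in aOL (0.35%) at an adjusted p under 0.05. At an unadjusted p under 0.05, 1 was higher (4.18% of all), that of Acsl4, and 1 lower (1.79%), that of Acsl3. The Acsl4 promoter had 22 and 35 (aOPC) against 33 and 120 (aOL) counts (difference 0.82 ± 0.40, log2, edgeR adjusted p = 0.83), with overlap in CPM. That of Acsl3 had 41 and 25 (aOPC) against 13 and 38 (aOL) (difference -0.94 ± 0.44, edgeR adjusted p = 0.778), and it was the one promoter of the set called without aOPC replicate 3, where 1471 of 15190 promoters were called higher and 194 lower. Without aOPC replicate 2 its difference was -0.43. The signs turned on the scaling: 13 promoters of the set were higher and 23 lower with TMM, and 1 and 35 with library totals alone, which moved the median of all promoters from -0.01 to -0.60. Aspa and Hsd17b12 had too few promoter counts for a test, and Arsa, Gla and Acaca had no promoter site.

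RNA and gene body differences were set side by side for the members with both. Across the 40 genes Spearman's rho was 0.35 and Pearson's r 0.15, and without Asah1 they were 0.36 and 0.25, as a description, since the genes share the same libraries and are not independent. Acsl4 (1.001 in RNA, 0.33 in the gene body) and Acaca (1.19 and 0.16) had positive values in both. B4galnt1 (1.14 and -0.41) and Scd2 (0.99 and -0.63) had opposite signs. For Fasn and Ugt8a the gene body difference was smaller than its standard error.

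**Figure D5:**
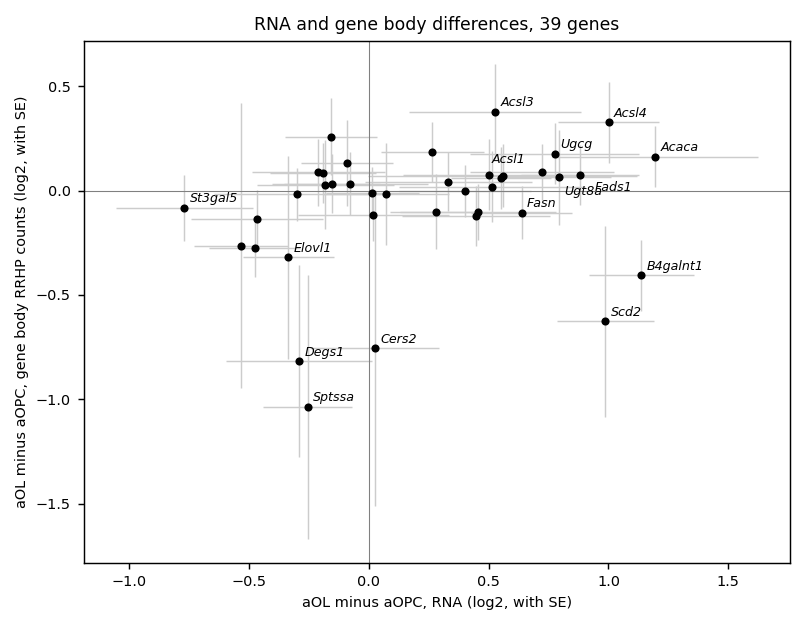
The aOL minus aOPC log2 difference in RNA (horizontal) against that in gene body RRHP counts (vertical) for 39 lipid genes, each with its standard errors. Most gene body differences lie within 0.3 of 0 whatever the RNA difference, and Asah1 (0.04 and -4.96) is not drawn.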

How the data were processed

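RNA-sequencing and RRHP of aOPC and aOL were compared with 2 libraries each. In the study's RNA workflow BWA aligned the reads to mm10, featureCounts counted unique exon reads and DESeq2 normalized them. The RNA values deposited by the authors are normalized log2 levels whose distributions are nearly equal between libraries, which removes any shift shared by most genes. The largest value, 21.87, and the summed linear level are the same in all 4 libraries. Single high values recur across genes, as 19.58 for the markers Mbp in aOPC replicate 2 and Cnp in both aOL libraries. High levels can thus follow a gene's rank in its library. The step behind this is not given in the sources used here. The log base is inferred from their range, and RNA depth per gene is unknown. The RRHP counts deposited by the authors are raw reads per CpG site and strand on mm10, with columns that name the gene of a promoter, exon or intron. The RRHP aligner is not given in the sources used here.

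The rule for members uses no measured value, but members and lists were chosen with earlier results of these data known. RNA was tested with limma 3.58.1 on genes that reached log2 5 in 2 or more libraries. RRHP counts were summed per gene body (exon or intron) and per promoter and tested with edgeR 4.0.16 (quasi-likelihood, TMM, filterByExpr), as were single sites that reached 10 reads in 2 or more libraries. Tests were two-sided with population as the only term and Benjamini-Hochberg adjustment over all features. Values per library are given for members past an unadjusted p under 0.05, for 12 with defining roles, for the 3 with the widest aOPC gap, and for up to 12 called sites by p, others being named with their ranges. Sites of the highest signal and other genes were picked after their values were seen. The labels do not tie libraries to animals, so p-values measure only the spread between libraries. Same-numbered libraries come from different reporter lines and no block was used. An oligodendrocyte marker beside the 11 used is not reported here. Hacd2 and Hacd3 were matched in the RRHP tables through older symbols. Without molecular identifiers in the reads, intervals and the floors of 3 counts per library reflect counting error alone. Gene lengths and promoters are from RefSeq, exon lengths from GENCODE, both GRCm38. Alternatives, with DESeq2 1.42.0 among them, are given in the closing section. R 4.3.3, Python 3.11.15 and matplotlib 3.10.9 ran the work.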

Additional observations from a re-analysis of the deposited data

How the results depend on the processing

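No RNA call was made in the set without a filter, with a minimum of 8, with a mean-variance trend, with equal medians, at an adjusted p under 0.1 or with the replicate block. Leaving out one library gave 0 to 10 genes called higher and 0 to 3 lower, and 0 to 14 and 0 to 10 at an unadjusted p under 0.05. The lower count at that p, 1, became 0 without a filter, 2 with a minimum of 8, 3 with the trend and 0 with the replicate block, and the higher count, 7, became 5 with the block. Without one library the median difference ranged from 0.055 to 0.320 for breakdown genes and from -0.0013 to 0.136 for synthesis genes. Cers2 ranged from -0.25 to 0.30 and changed sign without aOPC replicate 3 (-0.25) and aOL replicate 3 (-0.04). Elovl7 ranged from -0.068 to 0.096 and changed sign without aOPC replicate 2 (-0.07) and aOL replicate 2 (-0.01).

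The count of 1 gene body called lower became 0 when only sites with 3 reads in each library were summed, which left Asah1 untested, and one library less gave 0 to 5 higher and 1 to 6 lower. Promoters had 0 called higher and 0 to 1 lower without one library and 0 otherwise. Sites, 6 higher and 8 lower, became 2 and 8 with DESeq2, 0 and 0 with 10 reads in each library, and 0 to 7 and 5 to 9 without one library. Replicate numbers are shared by name: same-numbered libraries had deviations correlated at -0.07 in RNA, -0.42 in gene bodies, -0.42 in promoters and -0.06 in sites. The replicate block gave 1 gene body, 0 promoters and 15 sites (7 higher, 8 lower). A crossed pairing, chosen after seeing the data, gave 0 RNA calls (0 lower at an unadjusted p under 0.05), 2 gene bodies, 0 promoters and 15 sites.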
